A study of Mus musculus with 8 samples.

Results

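The genes described here are those of the Lin28/let-7 axis, together with the surface receptor gene Igdcc3 and the zinc-finger gene Sall4, in the tongue bud of the mouse embryo. Of 9 listed genes, 8 were measured by 26 of the 34945 probe sets that name a single gene, and these 8 stand among 18193 genes in all. Igf2bp2 had no probe set of that kind and was not analysed here. Igdcc3 and Sall4 were chosen by their large rise in these same arrays, so their differences are given as a description without a test. The other 6 measured genes, Igdcc4, Lin28a, Lin28b, Hmga2, Igf2bp1 and Igf2bp3, are listed as relatives or as genes of the let-7 pathway.

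RNA came from tongue buds collected at embryonic day 13.5 (E13.5) from C57BL/6J mice and was hybridised to one-colour Affymetrix arrays, 4 per genotype. Control embryos were Alk5 fl/fl. Mutant embryos were Alk5 fl/fl with Wnt1-Cre, so all 8 samples carry the floxed alleles and the mutants alone carry the Cre transgene. Cre under the Wnt1 promoter acts in cranial neural crest, which forms the mesenchyme of the bud, while muscle precursors keep an intact gene. Alk5 is the type I receptor of TGF-beta, and its gene symbol is Tgfbr1. The series asked how loss of TGF-beta signalling in the crest affects the interaction of crest and muscle precursors. No group carried Wnt1-Cre without the floxed alleles, so transgene and receptor loss cannot be told apart. The labels do not give embryo sex, and they do not say whether a sample is 1 embryo or a pool, or whether samples shared a litter. The p-values therefore measure only the spread between these samples.

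Lin28a and Lin28b encode RNA-binding proteins that hold back the maturation of let-7 microRNAs in early embryonic cells. Mature let-7 represses many messages of early development and growth, among them Hmga2, Igf2bp genes and Trim71, and as development proceeds Lin28 falls and let-7 rises. Igdcc3, first named Punc, encodes a receptor of the same immunoglobulin superfamily branch as DCC and neogenin, and Sall4 encodes a transcription factor of pluripotent cells and limb buds.

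The let-7 microRNAs are shown because their shared seed defines the axis, although no probe set of the array is annotated to a let-7 gene and let-7 itself was not measured. The sequences are RefSeq's (GRCm38.p6), written 5′ to 3′ with the seed, bases 2 to 8, in capitals. Of 1738 mature mouse microRNAs listed there, 13 carry this seed, in 11 different sequences.
let-7a-5p: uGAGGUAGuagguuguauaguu
let-7d-5p: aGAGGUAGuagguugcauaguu
let-7g-5p: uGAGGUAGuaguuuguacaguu
miR-98-5p: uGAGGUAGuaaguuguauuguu
These 4 sequences share the seed and differ outside it. Lin28 proteins are known to bind a GGAG motif in the loop of the let-7 precursor. The hairpin of Mirlet7g (chr9:106178840-106178927, plus strand) is shown with that motif, at base 56, in capitals.
Mirlet7g: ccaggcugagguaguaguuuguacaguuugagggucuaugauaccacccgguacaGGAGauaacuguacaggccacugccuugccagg
Of 13 hairpins with this seed, 11 have annotated mature arms on both sides of the loop, and GGAG was found between the arms in 8 of these 11. A match describes the letters of a precursor and does not show binding.

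The array medians of the log2 values lay between 5.96 and 6.01, and the signal of a probe set is called dim here where its group means lie below them. The targeted gene Tgfbr1 read 12.03, 12.12, 11.97 and 11.89 on controls and 12.42, 12.42, 12.37 and 12.36 on mutants. This set, 1420895_at, was higher in the arrays labelled mutant by 0.39. The dimmer sets 1420893_a_at and 1420894_at were higher there by 0.82 and 0.52 (limma adjusted p = 0.0109 and 0.0367 over all probe sets). So no set of the targeted gene was lower in those arrays. Whether any set covers the floxed part is unknown here, and the labels were therefore not checked by this gene. All directions below rest on the labels. Control 3 had a mean Y-linked log2 value of 3.09, as from female tissue, where the other arrays had 8.44 to 8.73. The groups were therefore not matched for sex. Without control 3, Igdcc3 differed by 2.30, Sall4 by 1.62, Igf2bp1 by 0.34 and Igf2bp3 by 0.41 on the log2 scale, close to the values given for all 8 arrays. Markers of the bud's known tissues were mostly bright, although the control mean of Alx4, 5.79, lay below the array medians. The dimmest of 10 muscle markers, Ckm, lay at the 45.3 percentile of probe set signal, the dimmest of 9 epithelial markers, Krt8, at 84.5, and the dimmest of 8 neural crest mesenchyme markers, Alx4, at 40.3. Just below Alx4 were S100b of the Schwann and glial list at 37.6, Ptprc of the macrophage and leukocyte list at 38.2 and Tie1 of the endothelial list at 39.5. Lower still were Snap25 of the neuron list at 6.5, Hba-a1 of the erythroid list at 14.7 and Matn1 of the cartilage and bone list at 8.5.

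Igdcc3 had one of the largest positive differences of the whole table. Controls 1 to 4 read 6.49, 6.46, 6.43 and 6.58 on 1439498_at, its brightest set. The 4 mutants, in the same order, gave 8.85, 8.89, 8.71 and 8.79. Every mutant array lay far above every control array, while the arrays of one genotype lay close together. The group means were 6.49 ± 0.066 and 8.81 ± 0.079 (SD, n = 4 each), which is a difference of 2.32 on the log2 scale, or 4.99-fold, and rank 3 of 18193 genes by log2 difference.

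The 3 probe sets of Igdcc3 did not give the same difference. The set 1423496_a_at read 5.50, 5.33, 5.70 and 5.63 on controls and 5.82, 6.12, 6.17 and 6.34 on mutants, again without overlap, but its difference was 0.57. The set 1444981_at read 6.10 to 6.17 on controls and 6.05 to 6.17 on mutants, a difference of −0.02, and these groups overlapped. With the mean of the 3 sets in place of the brightest, the difference was 0.96. Where each set lies within the gene was not known here.

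Sall4 was higher in the mutants, from a dim control level. The set 1424152_at read 5.54, 5.47, 5.48 and 5.58 on controls and 7.15, 7.13, 7.29 and 7.05 on mutants. The control values sit below the array medians and the mutant values above them, with no overlap. The control mean was 5.52 ± 0.051 and the mutant mean 7.16 ± 0.10 (SD, n = 4 each), a difference of 1.64 on the log2 scale, or 3.11-fold, and rank 12. No detection call was used, so the fold holds for the measured signal only. The second set of Sall4, 1424153_s_at, whose suffix marks probes that can match more than 1 transcript, read 5.23, 4.93, 5.14 and 5.19 on controls and 5.17, 5.58, 5.89 and 5.36 on mutants. Mutant 1 lay within the control range there, and the difference was 0.38.

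Igdcc4, which encodes a close relative of Igdcc3, is its direct neighbour on chromosome 9 in RefSeq (GRCm38.p6) and did not show this rise. Its brightest set, 1416473_a_at, read 11.52, 11.68, 11.53 and 11.55 on controls and 11.56, 11.59, 11.35 and 11.36 on mutants. The groups overlapped, and the signal was high in both. The difference was −0.10 (limma 95% interval −0.27 to 0.06, adjusted p = 0.494 over all probe sets). The second bright set, 1416474_at, differed by −0.06 with an interval of −0.24 to 0.12. The dim sets 1443272_at and 1458958_at differed by 0.15 and 0.02, and 0 of the 4 sets passed.

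The start regions of these adjacent genes are shown because Igdcc3 was higher in the mutants and Igdcc4 did not show this rise. They run from 250 bases before to 50 bases after the RefSeq start (GRCm38.p6, plus strand), at chr9:65140904-65141203 for Igdcc3 and chr9:65101236-65101535 for Igdcc4. Capitals mark the GC box GGGCGG and the Smad core motif CAGAC, each searched on both strands.
Igdcc3: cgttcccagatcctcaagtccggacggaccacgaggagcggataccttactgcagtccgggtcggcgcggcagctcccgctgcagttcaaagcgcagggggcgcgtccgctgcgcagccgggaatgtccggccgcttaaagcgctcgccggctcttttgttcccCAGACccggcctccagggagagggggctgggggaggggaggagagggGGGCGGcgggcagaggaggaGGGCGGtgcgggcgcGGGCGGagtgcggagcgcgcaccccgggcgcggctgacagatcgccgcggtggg
Igdcc4: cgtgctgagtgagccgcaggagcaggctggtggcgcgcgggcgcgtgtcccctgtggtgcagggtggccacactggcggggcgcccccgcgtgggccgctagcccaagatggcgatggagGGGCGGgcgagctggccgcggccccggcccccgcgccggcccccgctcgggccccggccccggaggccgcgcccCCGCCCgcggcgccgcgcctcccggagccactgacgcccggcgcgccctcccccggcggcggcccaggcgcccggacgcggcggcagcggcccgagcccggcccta
The Igdcc3 window held 3 GC boxes and 1 CAGAC, which starts 86 bases before the gene start, and its GC content was 73.3%. That of Igdcc4 held 2 GC boxes and no Smad core motif, with a GC content of 84.7%. Among 32851 windows of this length, 35.7% held a GC box and 49.6% held CAGAC, and the median GC content was 52.7%. Of the listed genes 7 had such a window, and CAGAC was found in that of Igdcc3 alone. Sall4 and Igf2bp1 had no entry. With CAGAC in about as many windows as not, the match is a description of letters.

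**Figure D1:**
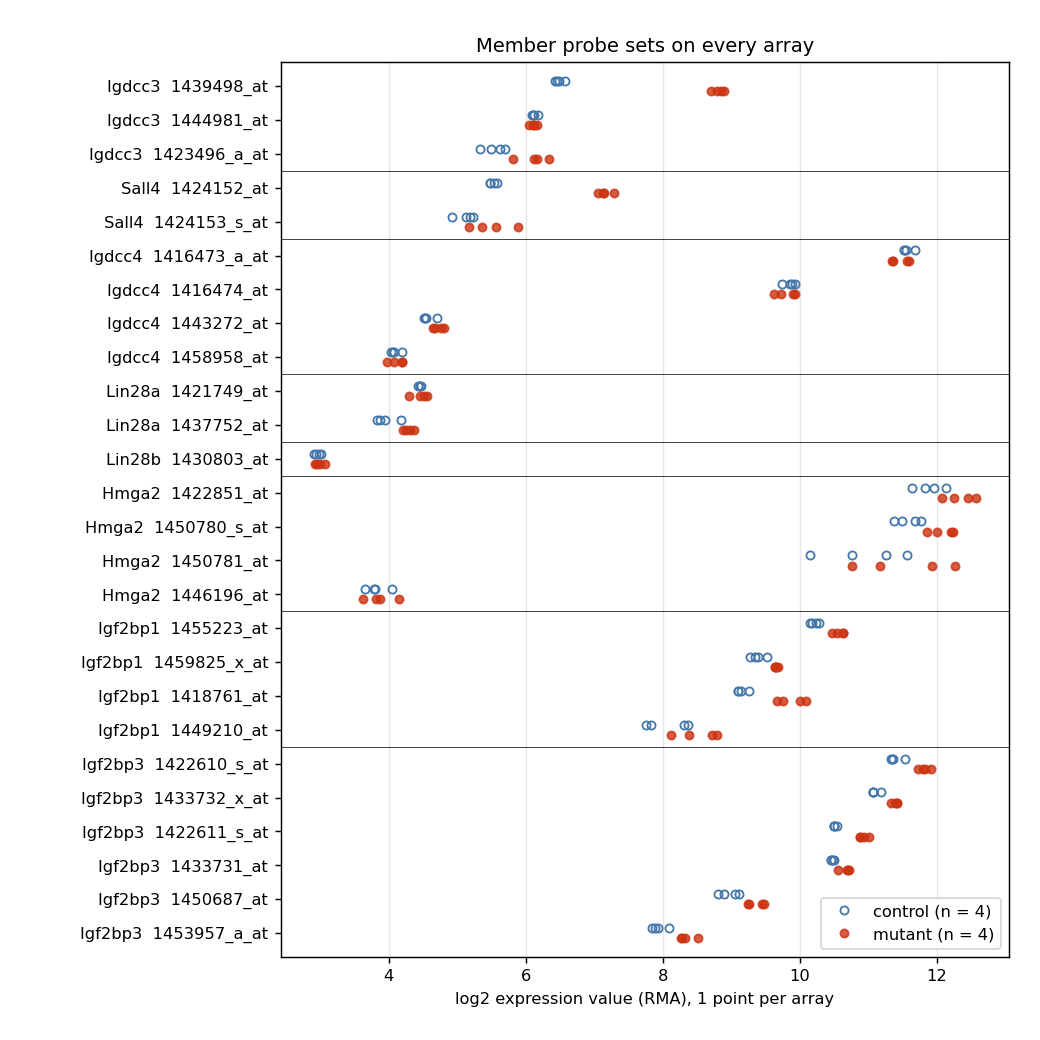
Log2 expression value (x axis, log scale of base 2) of the 26 probe sets of the 8 measured genes (y axis) on each array, with open blue circles for the 4 controls and filled red circles for the 4 mutants. The mutants stand apart from the controls on Igdcc3 1439498_at and Sall4 1424152_at, overlap them on all 4 Igdcc4 sets, and lie just above them on all 6 Igf2bp3 sets.

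Lin28a and Lin28b were dim in both genotypes. Lin28a read 4.43 to 4.48 on controls and 4.30 to 4.55 on mutants with 1421749_at, a difference of 0.00 (limma 95% interval −0.14 to 0.14, adjusted p = 0.994). Its other set, 1437752_at, read 3.83, 3.88, 4.18 and 3.95 on controls and 4.37, 4.32, 4.22 and 4.26 on mutants. These groups did not overlap, but control 3 nearly reached mutant 3. The difference was 0.33 (limma adjusted p = 0.0442 over all probe sets), and it failed to pass after 7 of 8 single-array omissions. Lin28b, with 1 set, read 2.91 to 3.01 on controls and 2.92 to 3.07 on mutants (difference 0.02, interval −0.10 to 0.14, adjusted p = 0.865). At such signals a low transcript level and no transcript cannot be told apart, and the intervals describe probe signal.

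Of the members Hmga2, Igf2bp1 and Igf2bp3, introduced above as let-7 targets, the 2 Igf2bp genes passed as higher and Hmga2 did not. Igf2bp1 and Igf2bp3 encode RNA-binding proteins of the fetal type that bind Igf2 and other messages. Hmga2, a chromatin protein of the high mobility group that is abundant in embryonic mesenchyme and repressed by let-7, was higher on its bright sets but passed on 1 of 4. Of the 6 genes not chosen by their rise, 2 passed as higher and 0 as lower at a limma adjusted p of 0.05, against 4.2% of all genes higher and 5.52% lower. At an unadjusted p under 0.05, 3 of the 6 were higher and 0 lower, against 11.3% and 12.5% of all genes. Over their probe sets, 10 of 21 passed as higher and 0 as lower, where 2.69% and 3.25% of all probe sets did. Without overlap of the groups, the mutants lay above the controls on 11 of the 21 sets, against 7.82% of all sets. The 10 passing sets became 6 when any one of controls 2 and 4 or mutants 2, 3 and 4 was omitted, and also without controls 1 and 3. Over all probe sets, those passing in either direction then numbered 1194 to 1407, against 2076 on all arrays. Several of the 21 member sets match the same transcript, so they are not independent. The members and the lists below were chosen with earlier results of these data known. The shares set beside their counts are therefore a description.

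Igf2bp3 was the most uniform of these. Its brightest set, 1422610_s_at, read 11.34, 11.55, 11.36 and 11.36 on controls and 11.73, 11.84, 11.92 and 11.79 on mutants. Control arrays averaged 11.40 ± 0.097 and mutant arrays 11.82 ± 0.078 (SD, n = 4 each), a difference of 0.42 (SE 0.064, limma adjusted p = 0.00369 over 18193 genes). On all 6 of its sets every mutant array was above every control array, with differences of 0.20 to 0.42. Of these, 5 passed over all probe sets, among them 1450687_at, which did not pass after 6 of 8 single-array omissions. The set 1433731_at at 0.20 did not pass (limma adjusted p = 0.0687). That set has no suffix for shared probes. When sets with such suffixes were left out, the gene rested on it as the brightest left and did not pass (0.20, limma adjusted p = 0.0515 over genes). The less bright 1450687_at also has no such suffix and differed by 0.39 (limma adjusted p = 0.0325 over all probe sets).

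Igf2bp1 rose on 3 of its 4 sets. The brightest, 1455223_at, read 10.24, 10.17, 10.16 and 10.28 on controls and 10.55, 10.47, 10.63 and 10.64 on mutants. The groups did not overlap, and the means were 10.21 ± 0.057 and 10.57 ± 0.076 (SD, n = 4 each). The difference was 0.36 (SE 0.056, limma adjusted p = 0.00413). The set 1418761_at gave the highest value, 0.73 (limma adjusted p = 0.00369 over all probe sets), with 9.10 to 9.27 on controls and 9.67 to 10.10 on mutants. The set 1449210_at, made from the same database sequence, read 7.75 to 8.37 and 8.13 to 8.80, overlapped between groups and did not pass (0.44, limma adjusted p = 0.232). The third passing set, 1459825_x_at at 0.27 (limma adjusted p = 0.0366), did not pass after 7 of 8 single-array omissions.

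Hmga2 varied widely within each genotype. Its brightest set, 1422851_at, read 12.14, 11.97, 11.83 and 11.65 on controls and 12.08, 12.25, 12.57 and 12.46 on mutants. Mutant 1 lay below control 1, and the difference of 0.45 did not pass (SE 0.127, limma adjusted p = 0.058 over genes). The set 1450780_s_at differed by 0.50 and passed over all probe sets (limma adjusted p = 0.0345), but not after 6 of 8 single-array omissions. Control values of 1450781_at ran from 10.15 to 11.57 and mutant values from 10.77 to 12.27 (difference 0.60, limma adjusted p = 0.439). The fourth set, 1446196_at, was dim and differed by 0.04.

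On the 3 bright sets of Hmga2, the order of the 4 arrays within each genotype was that of Malat1, a nuclear non-coding RNA. Controls 1 to 4 gave 9.73, 9.02, 7.49 and 7.11 for Malat1, and the mutants gave 7.58, 8.28, 9.80 and 9.24. This order was not particular to Hmga2. The main axis of variation among the 8 arrays (40.5%) placed those of each genotype in the same order, from high to low Malat1. Along it controls 1 to 4 lay at −8.0, 8.5, 23.2 and 37.0, and the mutants at 4.2, −7.9, −30.8 and −26.1. With the Malat1 value as a covariate, an alternative chosen after seeing the data, Hmga2 differed by 0.37 (limma adjusted p = 0.00304). Under the same covariate Igf2bp1 differed by 0.35 and Igf2bp3 by 0.40, and both still passed. Whether the covariate acted through Malat1 or through that axis was not tested, nor was the cause of the Malat1 spread.

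**Figure D2:**
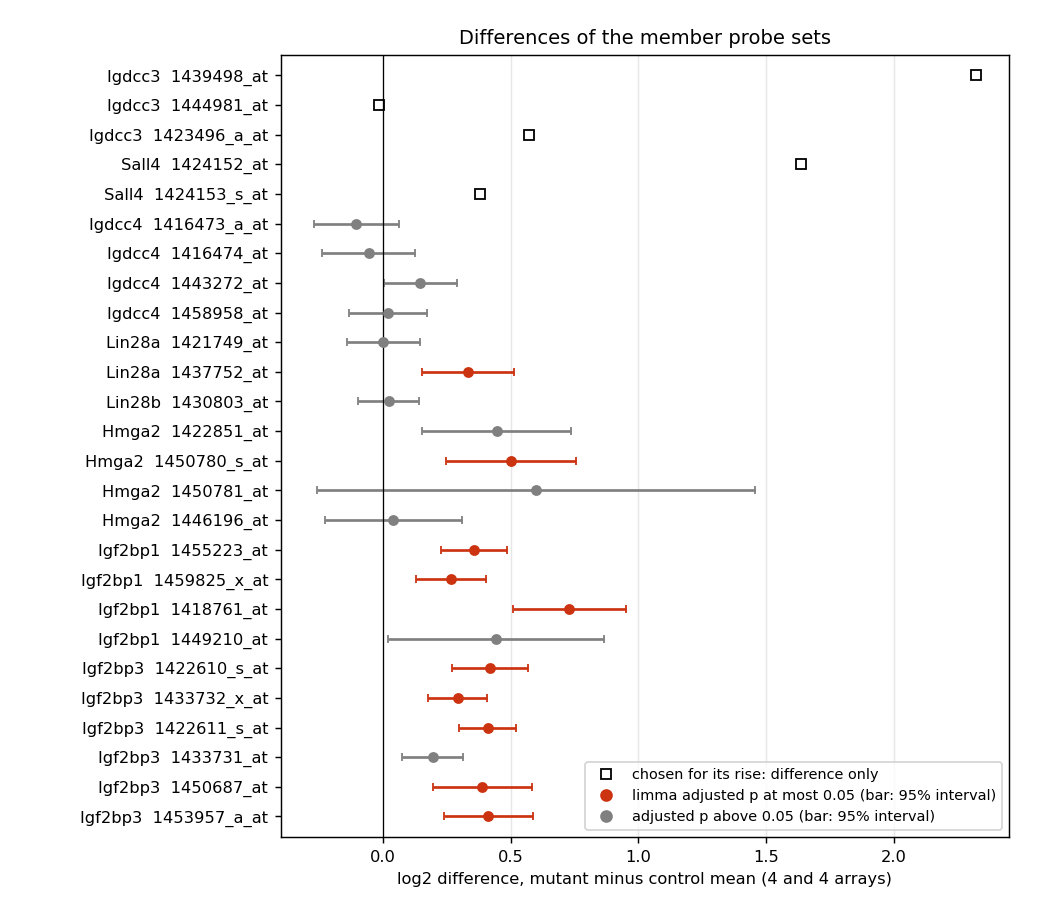
Difference of the mutant and control means in log2 units (x axis) for each of the 26 probe sets (y axis), with limma 95% intervals over 4 and 4 arrays. Open squares are the sets of Igdcc3 and Sall4, chosen for their rise and shown without an interval, red points passed an adjusted p of 0.05 over all probe sets and grey points did not. The Igf2bp1 and Igf2bp3 differences lie between 0.20 and 0.73, and all 4 intervals of Igdcc4 lie below 0.30.

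Other known let-7 targets, a list also chosen with earlier results of these data known, moved in the same direction in part. Of 22 listed, 19 were measured, 5 rose and 0 fell, with a median difference of 0.21 where that of all genes was −0.01. In 6 of the 19 all mutants lay above all controls, against 8.92% of all genes. Trim71, the ubiquitin ligase gene known as Lin41 and the classic let-7 target of the worm, rose most. It read 6.53, 6.42, 6.34 and 6.27 on controls and 7.59, 7.50, 7.63 and 7.31 on mutants, a difference of 1.12 (SE 0.083, limma adjusted p = 0.000101). The gap between the highest control and the lowest mutant was larger than the spread within either genotype. Its dimmer set, 1456673_at, differed by 0.45 with overlapping groups and did not pass (limma adjusted p = 0.146 over all probe sets).

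The transcription factor gene E2f5 rose by 0.72 (8.75 to 8.86 on controls, 9.39 to 9.66 on mutants, limma adjusted p = 0.000353), and Mycn, of the Myc family, by 0.64 (limma adjusted p = 0.00299). With the mean of all probe sets E2f5 differed by 0.42 and Mycn by 0.33, and both still passed. E2f6 rose by 0.31 (limma adjusted p = 0.00705), but by 0.06 with the mean of all its sets, which did not pass. Plagl2 differed by 0.24 (limma adjusted p = 0.047) and did not pass whenever any 1 of the 8 arrays was omitted. The next by p were Arid3a at 0.21 (limma adjusted p = 0.0732) and Ccnj at 0.32 (limma adjusted p = 0.128). In all 14 of the 19 did not pass, and 4 of these had negative differences. At an unadjusted p under 0.05, 10 were higher and 0 lower (11.3% and 12.5% over all genes). Of the 19, 16 lay above the median signal in either genotype, and among all such genes 6.4% passed as higher. That median is taken over the 34945 probe sets naming 1 gene. It lies above the array medians, so a gene below it need not be dim.

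The receptor family of Igdcc3 had a second member that rose. Prtg, which encodes protogenin of the early embryo, read 5.96, 6.14, 6.18 and 6.29 on controls and 6.89, 6.79, 6.95 and 6.71 on mutants with 1438410_at. The groups did not overlap, and the difference was 0.69 (SE 0.081, limma adjusted p = 0.00108). Its set 1456329_at differed by 1.15, from 5.68 to 5.75 on controls to 6.63 to 7.05 on mutants. The third set, 1438333_at, was dim and differed by 0.17, with overlapping groups, and did not pass (limma adjusted p = 0.337). Neo1, encoding neogenin, differed by 0.24 (limma adjusted p = 0.0462) and no longer passed after 7 of 8 single omissions. Dcc, the netrin receptor gene, was dim at 5.86 and 5.85 and differed by −0.01 (limma adjusted p = 0.972).

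Genes of the machinery that makes and uses let-7 were higher in 4 of 14 cases and lower in 0, with a median difference of 0.12. All 14 lay above the median signal, where 6.4% of genes passed as higher, and over all genes the shares were 4.2% higher and 5.52% lower. The 4 were Tut4, a uridylyl transferase that Lin28a recruits to pre-let-7, at 0.40 (limma adjusted p = 0.0329), Dicer1 at 0.32, Xpo5, which exports precursors from the nucleus, at 0.26, and Prkra, a Dicer partner, at 0.19. The next by p, Dis3l2 at 0.16 and Ago1 at 0.12, did not pass. At an unadjusted p under 0.05, 6 were higher and 0 lower (11.3% and 12.5% over all genes). With the mean of all probe sets Tut4 differed by 0.24 and Prkra by 0.09, and neither passed. Prkra (limma adjusted p = 0.0408 on all arrays) also failed after 7 of 8 single-array omissions, Tut4 after 5, Dicer1 after 2 and Xpo5 after 0. Without controls 1 and 3, 0 of the 14 passed, and the number was 1 without mutant 2 and 2 without control 2, mutant 3 or mutant 4. The share of all genes higher also fell, to 2.64% without controls 1 and 3 and to 2.35% to 2.67% in those single omissions.

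Among the relatives of Sall4, Sall2 rose by 0.31 (limma adjusted p = 0.017), with its call lost without mutant 4, while the dim Sall1 and Sall3 differed by −0.07 and 0.01. Of 11 genes of the NuRD complex, a chromatin repressor that Sall4 recruits, 2 were higher and 0 lower. All 11 lay above the median signal, where 6.4% of genes passed as higher. They were the helicase gene Chd4 at 0.30 (limma adjusted p = 0.0136) and Mta2 at 0.27 (limma adjusted p = 0.0244), and without controls 1 and 3 neither passed. Mta2 also failed after 6 of 8 single-array omissions. With sets that can match more than 1 transcript left out, Chd4 rested on another set and did not pass (limma adjusted p = 0.596). Mbd3 at 0.17 and Gatad2a at 0.18 came next and did not pass. At an unadjusted p under 0.05, 5 of the 11 were higher and 0 lower (11.3% and 12.5% over all genes).

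Other genes of the pluripotent state differed little in signal, but many were dim. Only 4 of the 17 measured lay above the median signal in either genotype, and dim sets give no measure of low transcript levels. Of 17 such genes 1 passed as higher and 0 as lower, a share near the 4.2% and 5.52% of all genes, and their median difference was −0.04. The one was Dnmt3b, a DNA methyltransferase, at 0.22 (limma adjusted p = 0.0299), which fell short after 7 of 8 single-array omissions. At an unadjusted p under 0.05, 1 was higher and 3 were lower (11.3% and 12.5% over all genes), led by Nodal at −0.15 and Klf4 at −0.34. A different gene was called lower in each of 4 alternatives, and these were named after their values were seen. They were Fgf4 with the mean of all probe sets, Sox2 without mutant 4, Tcl1 without controls 1 and 3, and Klf4 with the Malat1 covariate. Pou5f1 and Nanog, named for their standing as core factors, were dim in both genotypes: Pou5f1 read 4.38 and 4.39 and Nanog 3.69 and 3.65 in the control and mutant means. Of 4 measured messages bound by Igf2bp proteins 0 passed, where the smallest p belonged to Btrc at 0.15 (limma adjusted p = 0.187) and Cd44 at −0.41 (limma adjusted p = 0.253). Btrc alone was under an unadjusted p of 0.05. Igf2, named for its place in the family's name, differed by 0.02 (limma adjusted p = 0.881).

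**Figure D3:**
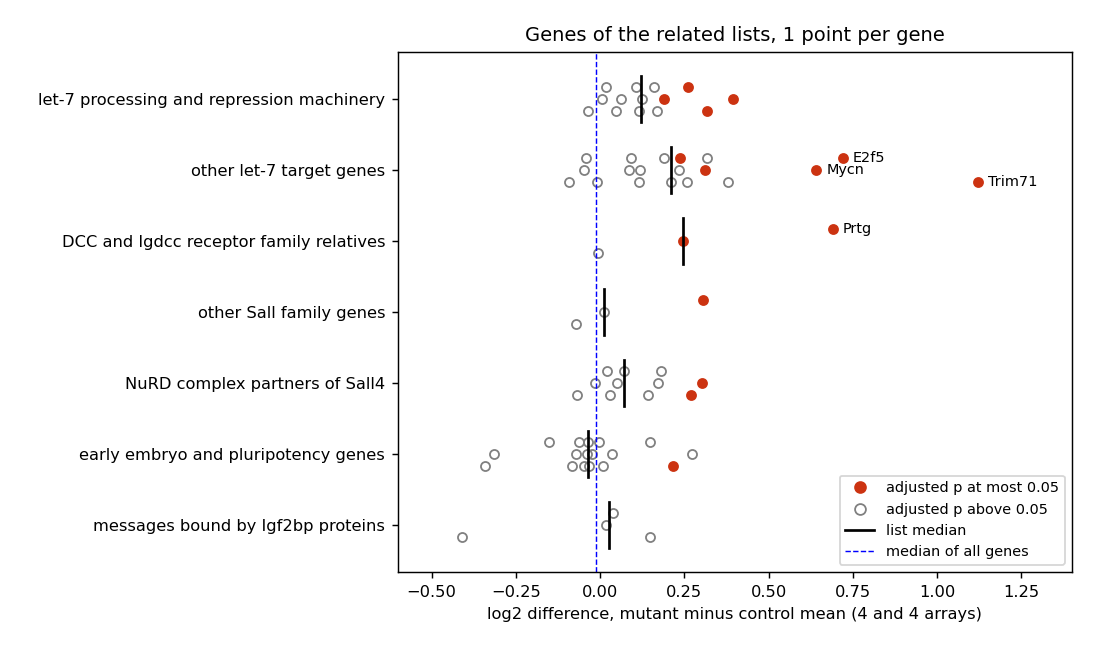
Difference of the mutant and control means in log2 units (x axis) for each measured gene of 7 related lists (y axis), 1 point per gene, filled red where the limma adjusted p over 18193 genes was at most 0.05. Black bars are list medians and the dashed line is the median of all genes, −0.01. Trim71 stands highest at 1.12, followed by E2f5, Prtg and Mycn.

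The genes whose array profiles were nearest to those of Igdcc3 and Sall4 were found by the root mean square distance between log2 profiles over the 8 arrays, each centred on its own mean. For Igdcc3 the 5 nearest were Sned1 at 0.31, Crispld2 and Arg1 at 0.32 each, Cxcl13 at 0.33 and Sall4 at 0.36. Sall4 had nearer neighbours, with Sned1 at 0.13, Smoc1 at 0.14, Crispld2 at 0.21, Hsd11b2 at 0.21 and Nefl at 0.24. Sned1 and Smoc1 encode secreted matrix proteins, and Sned1 and Crispld2 stood in both lists. The distance is set mainly by the size of the difference between genotypes, which chose both genes.

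In whole buds fewer cells of a type and less RNA per cell cannot be told apart, and markers of several cell types moved on the same arrays. The mean log2 value of 10 muscle markers was 10.22 to 10.51 on controls and 9.54 to 9.80 on mutants, with 7 lower. Over 9 macrophage and leukocyte markers it was 7.50 to 7.62 and 7.06 to 7.41, with 5 lower, and over 6 Schwann and glial markers 7.95 to 8.22 and 7.61 to 7.87, with 3 lower. Neuron markers were lower in 4 of 9 and higher in 2. Endothelial markers went the other way, from 7.94 to 8.04 on controls to 8.14 to 8.47 on mutants, with 3 of 8 higher. Neural crest mesenchyme markers were 9.10 to 9.31 and 9.24 to 9.42, with 1 of 8 higher. Of 7 erythroid and 6 cartilage and bone markers 0 passed, also at an unadjusted p under 0.05, and of 9 epithelial markers 1 was lower. Over all genes 4.2% passed as higher and 5.52% as lower, and a single call in a list cannot be told from these shares. The part of these shifts in the differences of Igdcc3, Sall4, Igf2bp1 and Igf2bp3 was not tested.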

How the data were processed

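The deposited log2 values of 8 one-colour arrays were made by the authors with RMA, per the submitters' processing notes. No detection call or scanner value was used here, and precision is limited by the number of arrays. Of 45101 probe sets, 64 were controls, 9160 unnamed and 932 named several genes, which left 34945 that name 1 gene. Genes were represented by their brightest set over all arrays, and the groups compared with limma 3.58.1 (R 4.3.3), two-sided, with Benjamini-Hochberg adjustment over 18193 genes or 34945 sets and a threshold of 0.05. The code was tested on simulated data. No dim set was removed.

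The members and lists were chosen with earlier results of these data known. Named genes are Tgfbr1, all members, from each list the called genes and the next by p, and the 5 nearest profiles to Igdcc3 and to Sall4. Igf2, Pou5f1, Nanog, Sall1, Sall3, Dcc, Malat1 and the dimmest marker of a list were named after their values were seen. Alternatives were a replicate block, another normalization or centring, filters on the median signal and the mean of all sets. Others kept only sets without _x, _s and _a suffixes, used robust limma or took Malat1 as a covariate. Each array, and controls 1 and 3 together, were also left out. Sequences are RefSeq's (GRCm38.p6).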

Additional observations from a re-analysis of the deposited data

Results flagged for a closer look

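On 3 of the 52 groups of 4 arrays formed by the 26 member probe sets and both genotypes, 1 array stood far from the others, where chance gives about 1 in 20. Control 1 read 4.71 on the dim Igdcc4 set 1443272_at, where the other controls read 4.51 to 4.54. Control 2 read 11.55 on Igf2bp3 1422610_s_at, where the others read 11.34 to 11.36. Control 4 read 11.18 on Igf2bp3 1433732_x_at, where the others read 11.07 to 11.08. The 3 arrays differ, and both Igf2bp3 values lie above their group, toward the mutants. Without control 2, Igf2bp3 differed by 0.47 between the groups and passed (limma adjusted p = 0.0041).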

How the results depend on the processing

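Igf2bp1 passed under all 18 alternatives (0.34 to 0.45) and Igf2bp3 under 17. With suffixed probe sets left out, the passing members other than Igdcc3 and Sall4 numbered 1 rather than 2, because Igf2bp3 then rested on 1433731_at. Hmga2 passed in 5 of 18, namely with either filter on the median signal, with the Malat1 covariate, and without control 1 or mutant 1. Without these arrays it differed by 0.53 each time (limma adjusted p = 0.037 and 0.0317). Igdcc4 and Lin28b passed in none, and Lin28a in none at the gene level. Between arrays of the same replicate number, deviations from the group means correlated at −0.58 to −0.13, and 0 of 4 fitted best with their own number. These values cannot exclude a pairing. The main axis of variation ran in nearly opposite directions over the replicate numbers of controls and mutants. A replicate block gave 966 genes and 697 probe sets, against 1768 and 2076, with Igf2bp1 and Igf2bp3 still called as genes, and 3 of the 21 member probe sets higher in place of 10. Under that block 0 of 14 let-7 machinery genes and 4 of 19 let-7 targets were higher, where 1.81% of all genes were. Cd44 was lower there, as were 637 of all genes. With each array left out in turn the counts were 1143 to 1583 genes and 1194 to 1705 probe sets. Without controls 1 and 3 the probe sets numbered 1201. The causes were not tested. Dim sets, among them those of Lin28a and Lin28b, give no measure of low transcript levels.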
